A study of Mus musculus with 2 samples.

Results

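Natural killer (NK) cells of the lung were described in 4T1 tumor-bearing mice that received saline or cargo-free nanoparticles (NPs). They were chosen by their transcripts. A cell was kept when it had 500 to 5000 detected genes and under 7.5% of its unique molecular identifiers (UMIs, each a count of 1 captured transcript molecule) on mitochondrial genes. It then needed under 5% of its UMIs on S100a8 and S100a9, at least 2 UMIs of Ncr1, Klrb1c, Klre1 and Eomes together, and none of Cd3d, Cd3e, Cd79a or Csf1r. This gave 114 NK cells of 8662 kept cells in the saline library and 123 of 8333 in the NP library, or 237 of 16995 in all. The NK cells and the gene lists were chosen with earlier results of these data known, and every value of the 4 selecting genes below is a description.

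All mice were female BALB/cJ animals of 12 weeks with a 14-day tumor grown from 100000 cells of 4T1-luc2-tdTomato. This is a luciferase-expressing form of 4T1, a mouse mammary carcinoma line that spreads to the lung. Intravenous saline or intravenous particles of the polymer PLG, which carried no drug, were given every 3 days from day 1, for 5 doses. The lungs of 4 mice per condition were pooled by the sample labels, while the methods of the study state a different number, and each pool gave 1 single-cell library. Both groups carried tumors, so no tumor-free or untreated lung is part of the comparison, and the suspension was not sorted for NK cells. With 1 library per condition there is no replicate error and no test, and all intervals are 95% intervals that cover counting error only. The files held 91168129 UMIs in the saline and 90081747 in the NP library, and the NK cells held 547134 and 734541 of them. No barcode was shared by NK cells of the 2 libraries, and 21 barcodes were shared among all kept cells.

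NK cells are innate lymphocytes that kill stressed, infected or transformed cells without prior sensitization. Activating and inhibitory receptors are weighed against each other: inhibitory receptors of the Ly49 and CD94/NKG2A families read MHC class I on the target, and activating receptors such as NKp46 and NKG2D read ligands of stressed cells. An activated NK cell releases perforin and granzymes and secretes IFN-γ and chemokines, and in the lung NK cells take part in the control of circulating tumor cells that lodge in the capillaries. Mouse NK cells mature from a Cd27-bearing stage to an Itgam-bearing stage, on which KLRG1 and CX3CR1 appear.

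Few cells lay near the limit of 2 UMIs. The 4 selecting genes together had 2 to 40 UMIs per saline NK cell (median 16) and 5 to 54 per NP NK cell (median 19). Just inside the limit, 2 saline cells and no NP cell had 2 to 4 UMIs. Just outside it, 3 saline and 13 NP cells had 1 UMI, and of these 0 and 1 carried Gzma. The plot of the selecting genes shows that most cells lay far above the limit.

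**Figure D1:**
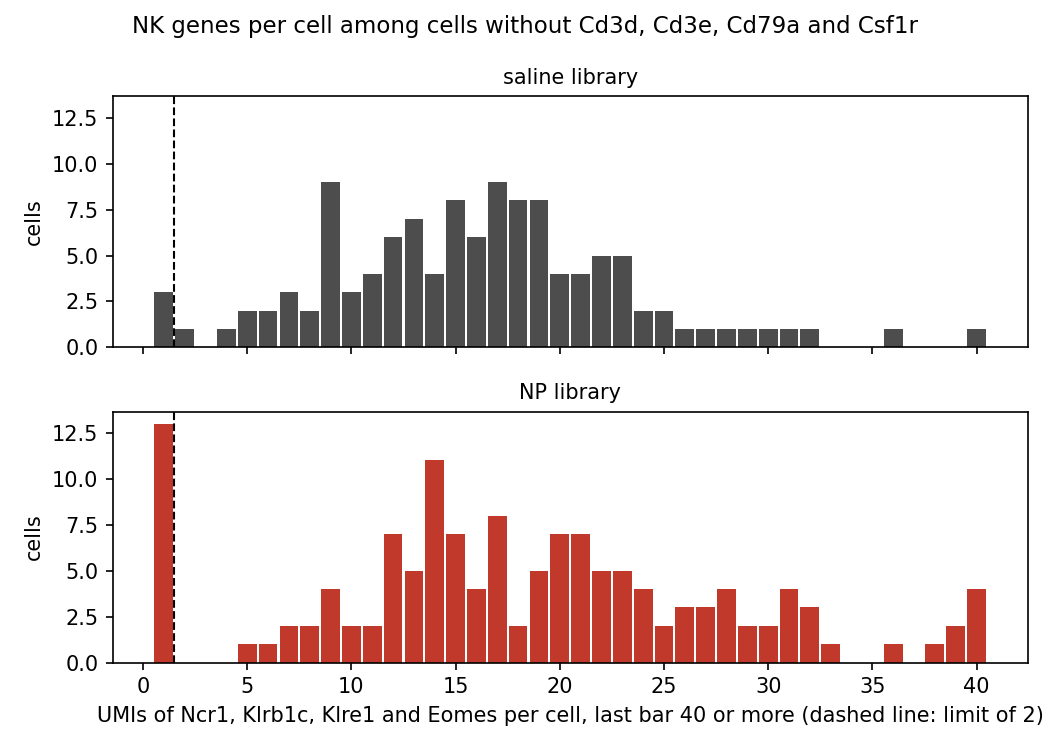
UMIs of Ncr1, Klrb1c, Klre1 and Eomes per cell (x axis, the last bar holding cells with 40 or more) against the number of cells (y axis), in cells with S100a8 and S100a9 under 5% and without Cd3d, Cd3e, Cd79a and Csf1r; cells at 0 are not drawn. The dashed line is the limit of 2 UMIs, and the medians of the NK cells to its right were 16 (saline) and 19 (NP).

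The label was borne out by genes that took no part in the choice. Gzma, a granule protease, was present in 113 of 114 NK cells (saline) and 119 of 123 (NP), Nkg7, a granule membrane protein, in all cells of both libraries, and Klrd1 (CD94) in 113 and 123 cells. The T cell genes Cd4, Cd8a, Cd8b1, Cd5, Cd6 and Themis had no UMI in any NK cell of either library. With Cd3d and Cd3e, which the rule set to 0, they are the 8 of 17 T cell genes at 0. Trac had 5 UMIs in 4 saline cells and 10 in 9 NP cells, and the list summed to 1385 CPM in the saline and 1244 in the NP library, led by Trbc1. Trbc1, Trbc2 and Trdc were present, as they are in NK cells generally, while Cd3g had 3 UMIs in 3 saline cells and 27 UMIs in 10 NP cells. Of 22 monocyte and macrophage genes 7 were at 0, Adgre1 and C1qa among them, and the list, led by Ccr2, summed to 420 and 453 CPM, with 2 NP cells that held 45 and 22 UMIs. B cell genes summed to 100.5 and 245 CPM, led by Cd74. Of these UMIs, 2 NP cells held 52 and 35, and the highest saline cell held 7. Dendritic cell genes summed to 143 and 172 CPM, with Siglech at 0. The part of these other cell types in the results was not tested. Of the cells without a Gzma UMI, 1 was in the saline and 4 were in the NP library. The NK cells of the NP library were the deeper ones, with a median of 5528 UMIs and 2104 genes per cell against 4382.5 UMIs and 1843.5 genes.

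The study asked how NP administration changes the immune cells of the lung. NK cells were 1.32% of kept saline cells (1.09% to 1.58%) and 1.48% of the kept cells of the NP library (1.23% to 1.76%), a log2 ratio of 0.17 (-0.20 to 0.53). Among cells with S100a8 and S100a9 under 5%, the share was 3.66% (3.03% to 4.38%) in the saline and 2.37% (1.97% to 2.82%) in the NP library, a log2 ratio of -0.63 (-0.99 to -0.27). The denominator differed between the libraries, since 3113 saline and 5190 NP cells lay under that limit. Among gated lymphocytes (NK, CD8 T, CD4 T and B cells), NK cells were 13.6% (11.4% to 16.2%) and 12.8% (10.7% to 15.0%), a log2 ratio of -0.10 (-0.44 to 0.25). The direction of the NK share therefore depended on the cells it was divided by, and its intervals over all kept cells and over lymphocytes held a ratio of 1.

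Ngp and Camp, granule genes of immature neutrophils, were found in 16 of 114 saline NK cells (14.0%, 8.24% to 21.8%) and 20 of 123 NP NK cells (16.3%, 10.22% to 23.99%). No cell held more than 2 UMIs of Ngp or 1 of Camp. In gated B cells, which should lack both genes, the share was 13.8% in the saline and 14.0% in the NP library, at median depths of 4344 and 4496 UMIs. When cells were thinned to 2000 UMIs, the share expected over all random draws was 5.84% in saline and 5.48% in NP NK cells, and 5.90% and 6.01% in B cells. The share in NK cells thus lay close to that of B cells, and the source of these UMIs was not tested. A single draw gave 2 of 113 saline and 10 of 123 NP NK cells.

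S100a8 and S100a9, the most abundant neutrophil transcripts, were lower in the NP library. S100a9 had 547 UMIs in saline and 312 in NP NK cells (1000 and 425 CPM, that is UMIs per 1000000 UMIs of the NK cells of that library, log2 ratio -1.23), and S100a8 had 429 and 230 (784 and 313 CPM, -1.32). They were spread thinly, with at most 14 UMIs of either gene in a cell, and their share of the UMIs in barcodes with under 50 UMIs, which hold free RNA, was also lower in the NP library (195208 and 114526 CPM). If all S100a8 and S100a9 in NK cells came from free RNA, it would make up 0.914% of saline and 0.644% of NP NK UMIs. The cells had been limited on these genes, and without that limit the log2 ratios were 0.28 for S100a8 and 0.22 for S100a9. Of the 23 neutrophil genes listed, 10 had at least 20 UMIs and 8 of these were lower, with a summed level of 2301 CPM in the saline and 1013 in the NP library. S100a8 and S100a9 made up most of that sum, and without the limit on them the median of the list was 0.28 in place of -0.87. Ltf had 0 and 4 UMIs and Ly6g 2 and 2, and Mmp8 and Stfa1 were at 0 in both libraries.

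Most genes of NK cells differed by under 2-fold between the libraries. Over the 3782 genes with at least 50 UMIs, the median log2 ratio of NP over saline was -0.04. A ratio of at least 2 was reached by 64 genes that were higher in the NP library (1.69%) and 28 that were lower (0.74%). Among the 6449 genes with at least 20 UMIs the shares were 3.57% and 2.99% and 45.7% of genes were higher, which are the background for the gene lists. Without the cells that carried Ngp or Camp, 36 genes were at least 2-fold higher, and without the cells with at least 20 endothelial UMIs 38 were. After pooling cells thinned to 2000 UMIs, 13 were higher and 12 lower. These pools hold fewer UMIs, the thinned pool most of all, so fewer genes can reach 50 UMIs. Their counts are therefore not shares of the 3782 genes. Among the most abundant transcripts, Ccl5 (CCL5, a chemokine stored in NK cells) made up 2.63% of saline and 2.69% of NP NK UMIs, and Gzma 1.55% and 1.81%.

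**Figure D2:**
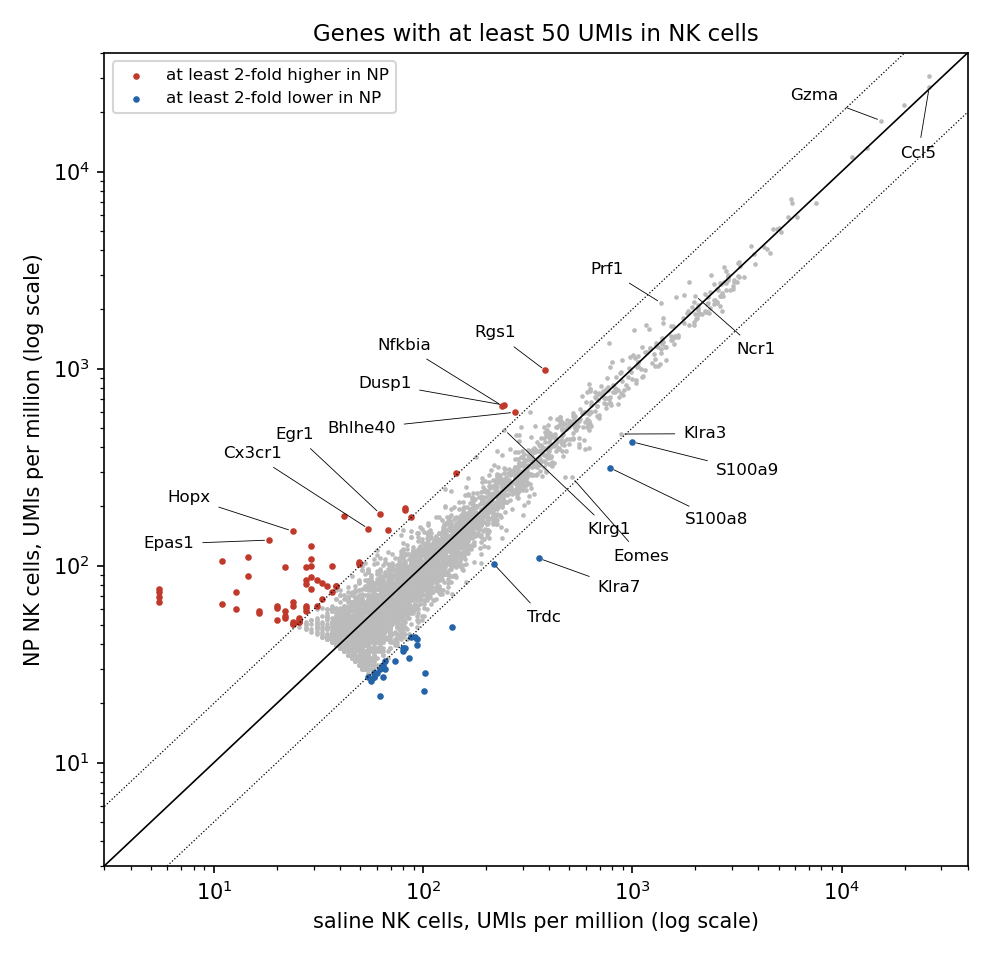
CPM in saline NK cells (x axis) and NP NK cells (y axis), both on log scales, for 3782 genes with at least 50 UMIs, a count under 3 being drawn at 3. The solid line is equality and the dotted lines are 2-fold. Above them lie 64 genes and below them 28, and Gzma, Ccl5 and Ncr1 lie near the line of equality. After pooling thinned cells, which hold fewer UMIs, 13 genes were at least 2-fold higher and 12 lower, not as shares of the 3782 genes drawn.

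Among activating receptors and their adaptors, 5 of 21 measured members were higher and 16 lower, while 45.7% of all genes were higher. The median log2 ratio was -0.11, and 1 member, with under 50 UMIs, was at least 2-fold lower. Ncr1, which encodes NKp46 and is a selecting gene, had 1093 UMIs in saline and 1723 in NP NK cells, a log2 ratio of 0.23 (0.12 to 0.34). Klrk1 (NKG2D) had 453 and 557 UMIs, a log2 ratio of -0.13 (-0.31 to 0.06), and Tyrobp (DAP12), the adaptor of several activating receptors, had 961 and 1332 (0.05). The signaling chain Fcer1g had 1081 and 1265 UMIs (-0.20). Of the members with at least 50 UMIs, the ends were set by Slamf7 and Klri2. Slamf7, a receptor of the SLAM family, was 1.71-fold higher in NP NK cells, with 48 and 110 UMIs, while Klri2, a lectin-like receptor of the NK gene complex, was 1.71-fold lower, with 130 and 102 UMIs. Most activating receptors therefore differed little between the libraries.

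The inhibitory receptors went apart from each other, with 6 of 13 measured members higher, 7 lower and a median of -0.07. Klrg1, which binds cadherins and marks mature NK cells, was higher in the NP library. It had 134 UMIs (Poisson interval 112 to 159) in saline and 359 (323 to 398) in NP NK cells, or 245 and 489 CPM, a log2 ratio of 1.00 (0.71 to 1.29), just under the 2-fold limit. The gene lies at chr6:122270596-122282882 on the minus strand (GRCm38). A Klrg1 UMI was present in 64 of 114 saline cells (56.1%) and 106 of 123 NP cells (86.2%), and after thinning to 2000 UMIs in 33.6% (25.0% to 43.1%) and 58.5% (49.3% to 67.3%). Among the 1076 B cells, 1 had a Klrg1 UMI. Lag3, a checkpoint receptor chosen here after its values were seen, had 4 UMIs in 4 saline cells and 30 in 25 NP cells, a log2 ratio of 2.48 (0.98 to 4.45).

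Of the Ly49 receptors, which bind MHC class I, 5 had at least 20 UMIs, and 4 of these were lower in the NP library. Klra5 was higher, with 10 and 23 UMIs, and the low members Klra1 (26 and 21) and Klra4 (23 and 23) had log2 ratios of -0.73 and -0.42, with intervals that held 0. Klra7 (Ly49G) had 196 UMIs in saline and 80 in NP NK cells, or 358 and 109 CPM, a log2 ratio of -1.72 (-2.11 to -1.34). Klra3 (Ly49C) had 481 and 342 UMIs, or 879 and 466 CPM, a log2 ratio of -0.92 (-1.12 to -0.71). Both lie in the NK gene complex, Klra7 at chr6:130218605-130233322 and Klra3 at chr6:130323289-130337574, on the minus strand. A Klra3 UMI was present in 69 saline and 49 NP cells and a Klra7 UMI in 42 and 31. In cells with a UMI of Klra3, the median was 6 UMIs in the saline and 7 in the NP library, and in cells with a UMI of Klra7 it was 2 and 1. These medians are not matched for depth, which was higher in NP cells. At 2000 UMIs a Klra3 UMI was present in 53.1% of saline and 35.8% of NP NK cells. UMIs of both genes were present in 24 of 114 cells in the saline library (21.1%, 14.0% to 29.7%) and in 8 of 123 in the NP library (6.50%, 2.85% to 12.4%). Klra3 without Klra7 was present in 45 saline cells (39.5%) and 41 NP cells (33.3%), and Klra7 without Klra3 in 18 (15.8%) and 23 (18.7%). Cells with neither gene were 27 in the saline (23.7%, 16.2% to 32.6%) and 51 in the NP library (41.5%, 32.7% to 50.7%). Without the cells that carried Ngp or Camp, the log2 ratio of Klra7 was -1.09 and that of Klra3 -0.77. The genes of this family are close copies of each other, the reads were aligned to the mm10 genome of another strain, and the split of reads among the copies in BALB/cJ mice is uncertain. Klrd1 and Klrc1, which encode CD94 and NKG2A, had log2 ratios of -0.22 (-0.37 to -0.07) and -0.07 (-0.32 to 0.17).

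Of the cytotoxic genes, 12 of 19 measured members were higher, none passed 2-fold, and the median was 0.08. Prf1, which encodes the pore-forming perforin, stood highest. It had 752 UMIs (699 to 808) in saline and 1583 (1506 to 1663) in NP NK cells, or 1374 and 2155 CPM, a log2 ratio of 0.65 (0.52 to 0.78). The gene lies at chr10:61297833-61304680 on the plus strand. Nearly every NK cell carried it (111 of 114 and 121 of 123), and the median cell held 6 UMIs in the saline and 10 in the NP library. Serpinb9, the inhibitor that protects a killer cell from its own granzyme B, had 221 and 413 UMIs (0.48, 0.24 to 0.72), and Srgn, the proteoglycan of the granules, 427 and 749 (0.39).

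The granzymes themselves differed less. Gzma had 8489 and 13305 UMIs (log2 ratio 0.22, 0.18 to 0.26), and Gzmb (granzyme B) had 645 and 887 (0.03, -0.11 to 0.18). Thinned to 2000 UMIs, 77.9% of saline and 72.4% of NP NK cells had a Gzmb UMI, against none of the gated B cells in either library. Fasl (Fas ligand) had 217 and 275 UMIs (-0.08). The intervals of granzyme B and perforin did not overlap, and granzyme B lay near equality.

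The cytokines and chemokines that NK cells make lay close to equality, with a median of 0.03. Of 9 measured members 7 were higher, 2 of them by 2-fold (Xcl1 and Osm), where 45.7% and 3.57% of all genes were. Ifng, the gene of IFN-γ, had 132 UMIs (110 to 157) in saline and 183 (157 to 212) in NP NK cells, or 241 and 249 CPM, a log2 ratio of 0.05 (-0.28 to 0.38). In a single draw of 2000 UMIs it was found in 26.5% (18.7% to 35.7%) of saline and 32.5% (24.4% to 41.6%) of NP NK cells. The share expected over all draws was 30.56% and 29.95%, so that a difference in Ifng was not detectable at this depth. Ccl4 and Ccl3, inflammatory chemokines, had log2 ratios of 0.02 (-0.08 to 0.11) and -0.03 (-0.20 to 0.13). Xcl1, a chemokine that attracts cross-presenting dendritic cells, had 48 UMIs in 14 saline cells and 129 in 26 NP cells, a log2 ratio of 1.00 (0.51 to 1.51). A few cells held most of it, 5 cells carrying 79.2% of the saline and 60.5% of the NP UMIs, and the ratio was 0.69 without cells that lacked Gzma. Tnf and Il10, chosen after their values were seen, had 0 UMIs in saline NK cells and 8 and 15 UMIs in 4 and 8 NP cells. With the saline count set to the floor of 3, the fold was 1.99 for Tnf and 3.72 for Il10. These values depend on the floor and are not lower bounds.

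Among cytokine receptors and JAK-STAT genes, 14 of 24 were higher and the median was 0.14. Il2rb, the chain that receives IL-2 and IL-15, had 413 and 661 UMIs (0.25, 0.07 to 0.43), and Stat4, which carries IL-12 signals, had 118 and 119 (-0.41, -0.79 to -0.03). Socs1, an inhibitor of JAK signaling, had 27 UMIs in 21 saline cells and 75 in 42 NP cells, a log2 ratio of 1.05 (0.40 to 1.74). Il7r, the IL-7 receptor of innate lymphoid cells and naive T cells, had 16 UMIs in 5 saline cells and 79 in 12 NP cells. It was confined to few cells, and those without Gzma held 8 of the 16 saline and 34 of the 79 NP UMIs.

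The transcription factors were divided, 12 of 24 being higher and 12 lower, with a median of -0.03. Eomes, which with T-bet sets NK identity and is a selecting gene, had 282 UMIs in saline and 206 in NP NK cells, or 515 and 280 CPM, a log2 ratio of -0.88 (-1.14 to -0.61). It lies at chr9:118478212-118486132 on the plus strand. At 2000 UMIs it was found in 55.8% (46.1% to 65.1%) of saline and 43.1% (34.2% to 52.3%) of NP NK cells. Tbx21, which encodes T-bet, had 110 and 107 UMIs (-0.46, -0.86 to -0.07). Irf8 had 766 and 1323 (0.36, 0.23 to 0.49), and Id2, an inhibitor of E proteins that innate lymphocytes need, had 769 and 1256 (0.28). Bhlhe40, a repressor that is induced by activation, was chosen after its values were seen. It had 150 UMIs in 70 saline cells and 441 in 104 NP cells, a log2 ratio of 1.13 (0.86 to 1.41). Hopx, an atypical homeodomain cofactor of differentiated lymphocytes, had 13 UMIs in 11 saline cells and 110 in 48 NP cells, or 23.8 and 150 CPM, a log2 ratio of 2.66 (1.82 to 3.61). B cells carried Hopx in both libraries alike, in 20.5% and 19.1% of cells. At 2000 UMIs the share expected over all draws was 4.62% in saline and 21.0% in NP NK cells, and 8.47% and 8.16% in B cells.

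**Figure D3:**
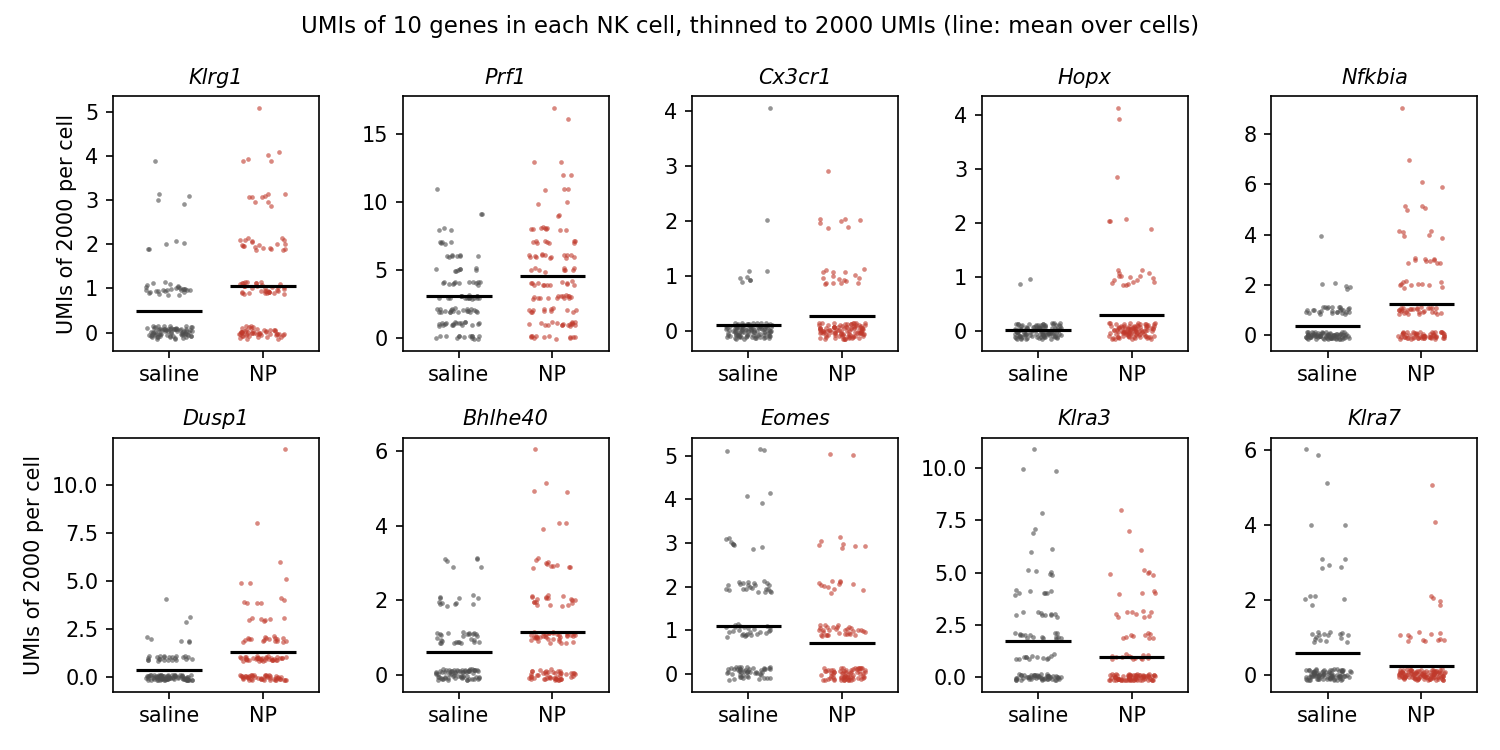
UMIs of 10 genes in each NK cell (points, y axis) after thinning to 2000 UMIs, for 113 saline cells (gray) and 123 NP cells (red), with points jittered and a line at the mean over cells. Klrg1, Prf1, Cx3cr1, Hopx, Nfkbia, Dusp1 and Bhlhe40 have higher means in the NP library, and Eomes, Klra3 and Klra7 have lower ones.

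Of 16 measured genes of the mature, Itgam-bearing stage, 13 were higher in the NP library, 1 of them by 2-fold, with a median of 0.13. Of 16 genes of the Cd27-bearing stage, 7 were higher, 3 of them by 2-fold, with a median of -0.09 that ranged from -0.14 to 0.17 over the alternatives. Beside both lists, 45.7% of all genes were higher and 3.57% were higher by 2-fold. Cx3cr1, the fractalkine receptor, had 30 UMIs in 18 saline cells and 113 in 50 NP cells, or 54.8 and 154 CPM, a log2 ratio of 1.49 (0.90 to 2.12). Itgam (CD11b) had 106 and 185 UMIs (0.38, 0.03 to 0.74), and Cd27 had 38 and 33 (-0.63, -1.35 to 0.08). At 2000 UMIs, Itgam without Cd27 was found in 29.2% (21.0% to 38.5%) of saline and 38.2% (29.6% to 47.4%) of NP NK cells, and Cd27 without Itgam in 11.5% (6.27% to 18.9%) and 5.69% (2.32% to 11.4%). Both pairs of intervals overlapped. Tbx21 and Klf2, which are also on the Itgam list, were lower (-0.46 and -0.17), and S1pr5, the receptor that lets mature NK cells leave the tissue of origin, had 63 and 88 UMIs (0.06).

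In homing and adhesion, 17 of 28 members were higher, with a median of 0.12. Rgs1, which dampens chemokine receptor signaling, had 210 UMIs in 65 saline cells and 719 in 98 NP cells, or 384 and 979 CPM, a log2 ratio of 1.35 (1.13 to 1.58). The highest saline cell held 16 UMIs and the highest NP cell 58. Itga4, the α4 integrin, had 339 and 291 UMIs (-0.65, -0.88 to -0.41), and Itgb2, the β2 integrin chain, had 338 and 613 (0.43). Cxcr3, a chemokine receptor of activated lymphocytes, had 10 and 18 UMIs.

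The genes that separate group 1 innate lymphoid cells (ILC1) from NK cells were few and low. All 7 of 12 that had at least 20 UMIs were higher in the NP library, 4 of them by 2-fold, while 45.7% of all genes were higher and 3.57% by 2-fold. The median was 1.31, or 0.67 without cells that lacked Gzma. The list summed to 207 CPM in saline and 436 in NP NK cells. Cxcr6 had 6 UMIs in 3 saline cells and 27 in 11 NP cells, and Tmem176b had 16 UMIs in 4 and 56 in 14 cells. ILC2 genes summed to 424 and 864 CPM, of which Klrg1 was the most abundant, and Il5 and Il13 were at 0 in both libraries. The part of other innate lymphoid cells in these values was not tested.

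In the TNF/NF-κB list, of 30 measured members, 22 were higher and 8 lower, 8 were at least 2-fold higher and 1 was at least 2-fold lower, where 3.57% and 2.99% of all genes were. The median was 0.31 against -0.04 over all genes. Nfkbia, the inhibitor IκBα, which NF-κB itself induces, had 131 UMIs (110 to 155) in saline and 475 (433 to 520) in NP NK cells, or 239 and 647 CPM, a log2 ratio of 1.43 (1.15 to 1.72). It was found in 50 of 114 saline cells and 86 of 123 NP cells. Icam1, an adhesion molecule, had 45 UMIs in 30 cells and 144 in 56 cells (1.25, 0.76 to 1.77), and Pim2, a survival kinase, had 16 in 15 cells and 64 in 40 cells (1.58, 0.77 to 2.47). Traf1 and Nfkbiz, chosen after their values were seen, had 45 and 141 UMIs (1.22) and 37 and 112 UMIs (1.17). The members with the most UMIs, Ccl4, Btg2, Ccl3 and Pim1, had log2 ratios of 0.02, 0.52, -0.03 and 0.32, and Tnfrsf9 (4-1BB) had 43 and 34 UMIs (-0.76, -1.46 to -0.08). The other members at least 2-fold higher were Bcl3 (6 and 26 UMIs), Nfkb2 (12 and 36) and Ier3 (9 and 32), and the member at least 2-fold lower was Cxcl2 (14 and 6).

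Immediate early and dissociation genes, which the preparation of a suspension can induce, bear on the same cells. Of 27 measured members, 16 were higher and 11 lower, with a median of 0.08. Dusp1, a phosphatase of MAP kinases, had 133 UMIs in 55 saline cells and 480 in 104 NP cells, a log2 ratio of 1.43 (1.15 to 1.71). Egr1 had 34 and 135 UMIs (1.56), but 5 NP cells held 62.2% of them. Junb had 1059 and 1505 UMIs (0.08), Jun 193 and 249 (-0.06) and Fos 92 and 134 (0.12). Hspa1b, a heat shock gene, had 56 UMIs in 7 saline cells and 21 in 8 NP cells (-1.84), and its direction turned when cells with 1 UMI of the selecting genes were admitted (0.16). The members with the most UMIs, Btg1 and Junb, differed from each other, Btg1 having 887 and 1690 UMIs (0.51, 0.39 to 0.63). Dusp1 and Egr1 were the members past 2-fold that were higher, and the part of tissue dissociation in the TNF/NF-κB values was not tested. Gadd45g, a growth arrest gene chosen after its values were seen, had 6 UMIs in 5 saline cells and 78 in 41 NP cells, a log2 ratio of 3.28 (2.09 to 4.77).

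**Figure D4:**
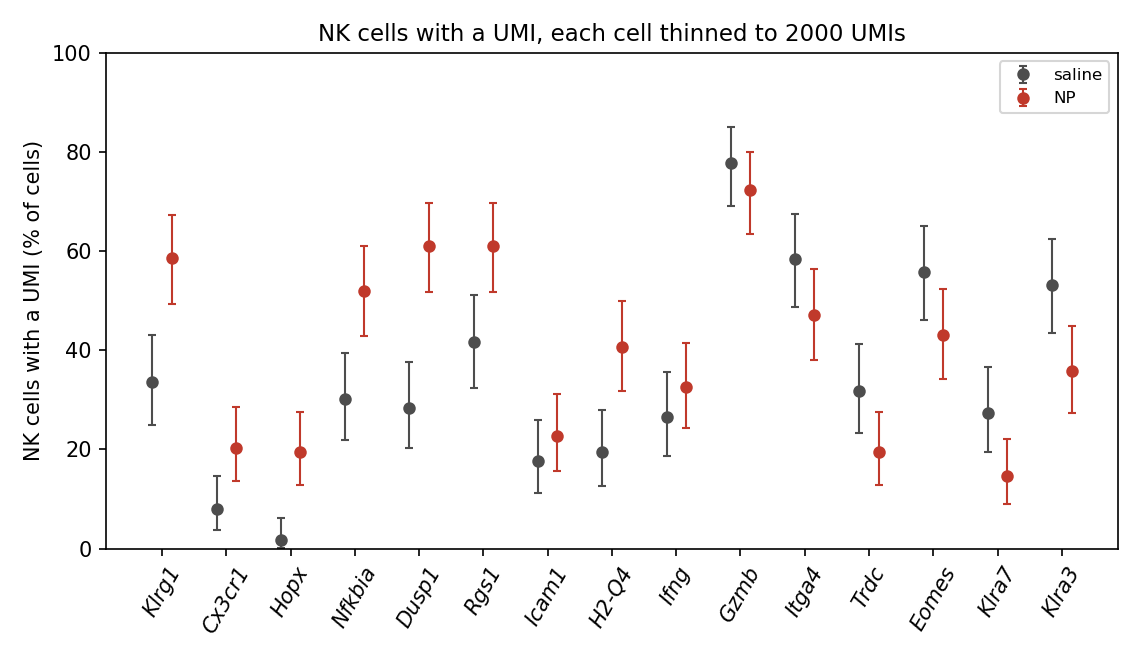
Share of NK cells with a UMI of each of 15 genes (y axis, percent of cells) in the saline (gray) and NP (red) libraries after thinning to 2000 UMIs, with exact binomial 95% intervals that cover counting error only. The intervals do not overlap for Klrg1, Nfkbia, Dusp1, Rgs1, Hopx or H2-Q4, while those of Ifng and Gzmb overlap.

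MHC class I presentation was higher as a group. Of 23 measured members, 20 were higher, 2 of them by 2-fold, and the median was 0.35. Among all genes 45.7% were higher, and 3.57% were higher by 2-fold. The heavy chain H2-K1 had 1025 UMIs in saline and 2012 in NP NK cells, or 1873 and 2739 CPM, a log2 ratio of 0.55 (0.44 to 0.66). H2-D1 had 3133 and 5361 (0.35, 0.29 to 0.41), and B2m, the light chain, had 965 and 1739 (0.42, 0.31 to 0.54). H2-Q4, a heavy chain of the Qa region, had 79 UMIs in 45 saline cells and 216 in 90 NP cells, a log2 ratio of 1.03 (0.65 to 1.42). Nlrc5, the activator of MHC class I genes, was chosen after its values were seen and had 3 UMIs in 3 saline cells and 29 in 23 NP cells, a log2 ratio of 2.85 (1.16 to 5.21). Tap2, Tapbpl and Psme1, which serve peptide transport and processing, were the lower ones, at -0.30, -0.32 and -0.15. The H2-Q genes are near-identical, so the split of reads among them is uncertain.

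Of 27 measured members of the IFN-γ response list, 19 were higher and 8 lower, 3 were at least 2-fold higher, and the median was 0.29. Over all genes, 45.7% were higher and 3.57% at least 2-fold higher. Irf1, the factor that relays IFN-γ, had 78 and 128 UMIs (0.29, -0.13 to 0.71). Ifi47, an IFN-γ-induced GTPase, had 44 and 96 UMIs (0.70, 0.17 to 1.25), Gbp4, a guanylate-binding protein, had 62 and 93 (0.16), and Psmb9, an immunoproteasome subunit, had 95 and 162 (0.35). Nlrc5 and Socs1 were among the members that passed 2-fold, and Cxcl9 and Cxcl10, chemokines of myeloid cells, had 0 and 1 UMI over both libraries. Type I IFN genes had a median of 0.10, with 14 of 25 higher. Among its highest members, Ly6a (8 and 81 UMIs) and Ifitm3 (23 and 131 UMIs), lay mostly in few cells that also carried endothelial transcripts, as given below, and the median was -0.12 without those cells.

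Promoters of some genes that were higher in the NP library are shown because NF-κB and interferon factors are known to act on them. The RefSeq promoter table (GRCm38.p6, 250 bases before to 50 after the start) held 27025 genes. Each was searched on both strands for an NF-κB motif (GGG and TTCC separated by 3 bases of any kind), an interferon-stimulated response element, ISRE (GAAA and GAAA separated by 2 bases), and an IFN-γ-activated site, GAS (TTC and GAA separated by 3 bases, the same on both strands). Matches of different motifs may overlap. A match was found in 6.31% of all genes for NF-κB, 3.99% for ISRE and 9.55% for GAS. Of 31 genes of the TNF/NF-κB list with a promoter, 10 had an NF-κB, 6 a GAS and 1 an ISRE match. Of 26 genes of the IFN-γ list, 13 had an ISRE, 10 a GAS and 3 an NF-κB match. Of 20 genes of MHC class I presentation, 5 had an ISRE, 2 an NF-κB and 2 a GAS match. No match to these patterns lay in the 250 bases before the start of H2-K1, H2-D1, H2-Q7, Prf1 or Traf1. Only these letters and spacings were searched, so a binding site of another form would not be found. The lists were written from known targets, so these shares describe the lists. The 250 bases before the start follow for 4 genes, 5′ to 3′ on the strand of the gene, with matches in capitals. Nfkbia has an NF-κB match (chr12:55492648-55492897, minus strand), B2m has an ISRE and an NF-κB match (chr2:122147437-122147686, plus strand), H2-Q4 has an NF-κB match (chr17:35379367-35379616, plus strand), and Icam1 has a GAS match (chr9:21015690-21015939, plus strand).
Nfkbia: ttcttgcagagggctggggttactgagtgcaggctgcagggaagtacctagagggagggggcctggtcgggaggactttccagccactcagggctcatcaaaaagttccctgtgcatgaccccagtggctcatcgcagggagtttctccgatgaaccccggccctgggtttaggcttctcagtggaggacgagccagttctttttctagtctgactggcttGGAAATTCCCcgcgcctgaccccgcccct
B2m: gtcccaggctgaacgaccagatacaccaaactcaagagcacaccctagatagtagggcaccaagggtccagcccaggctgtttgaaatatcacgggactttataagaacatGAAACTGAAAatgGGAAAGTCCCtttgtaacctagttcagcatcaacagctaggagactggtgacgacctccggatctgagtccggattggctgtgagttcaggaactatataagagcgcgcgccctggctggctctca
H2-Q4: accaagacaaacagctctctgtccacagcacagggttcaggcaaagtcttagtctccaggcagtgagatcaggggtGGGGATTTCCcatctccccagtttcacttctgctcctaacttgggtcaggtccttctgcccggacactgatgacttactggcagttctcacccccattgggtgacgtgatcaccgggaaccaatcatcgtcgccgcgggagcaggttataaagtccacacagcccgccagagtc
Icam1: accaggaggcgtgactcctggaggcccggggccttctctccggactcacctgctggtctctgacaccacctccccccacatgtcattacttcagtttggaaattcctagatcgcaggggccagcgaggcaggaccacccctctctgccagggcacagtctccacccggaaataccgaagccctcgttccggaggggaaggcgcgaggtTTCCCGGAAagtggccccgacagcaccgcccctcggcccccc

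The metabolic lists lay close to equality. Glycolysis had a median of 0.01 with 7 of 14 members higher, and nuclear genes of oxidative phosphorylation a median of 0.00 with 26 of 52 higher. Aldoa, an enzyme of glycolysis, had 105 and 204 UMIs (0.53, 0.19 to 0.89). Cytoplasmic ribosomal proteins were lower as a group, with 66 of 83 lower, a median of -0.16 and none past 2-fold. Cell cycle genes had a median of -0.03 with 8 of 18 higher, and Stmn1, a tubulin regulator of dividing cells, had 72 and 63 UMIs (-0.62, -1.13 to -0.11). Trdc, the constant region of the T cell receptor δ chain, which NK cells also transcribe, had 119 UMIs in 60 saline cells and 75 in 42 NP cells, a log2 ratio of -1.09 (-1.53 to -0.66).

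Part of the genes with the highest ratios came from few cells with endothelial transcripts. All 10 measured genes of the 15 on the endothelial list were higher in the NP library, and the list summed to 298 CPM in saline and 754 in NP NK cells. Its most abundant gene was Ramp2, a receptor component of endothelium, with 16 and 92 UMIs, and Ednrb was at 0 in both libraries. In the saline library 1 cell held 124 of the 163 endothelial UMIs. In the NP library 4 cells with at least 20 endothelial UMIs each held 224, 201, 31 and 20 of the 554. These 4 cells carried 86 of 92 Ramp2, 84 of 99 Epas1, 70 of 81 Ly6a, 112 of 131 Ifitm3, 52 of 65 Cd74 and 29 of 54 H2-Ab1 UMIs. All 6 measured MHC class II genes were higher, with a median of 1.99, and without the cells with at least 20 endothelial UMIs Cd74 was at 0.75, H2-Eb1 at 1.05 and H2-Ab1 at 1.95. The same cells held 19 of 110 Hopx UMIs. The endothelial list was also higher in the NP library in the other lymphocytes described next, with medians of 1.10 in CD8 T cells (7 of 8 members higher), 3.26 in CD4 T cells (8 of 8) and 1.37 in B cells (13 of 13). Without the cells with at least 20 endothelial UMIs, 38 in place of 64 genes were at least 2-fold higher, Ifitm3 was at -0.12, and Nfkbia, Dusp1, Rgs1 and Hopx were at 1.40, 1.38, 1.38 and 2.44.

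Other lymphocytes of the same libraries are set beside NK cells, since each class was chosen by markers of its own under the same limits. They were 99 saline and 87 NP CD8 T cells, 160 and 141 CD4 T cells, and 463 and 613 B cells, and differences between classes were not tested. Transcripts of other cells also differed within these classes. In CD4 T cells, neutrophil genes summed to 4533 CPM in the saline and 811 in the NP library, and platelet and erythrocyte genes to 5860 and 22.7. In CD8 T cells, monocyte and macrophage genes summed to 317 and 1249 CPM, and in B cells epithelial genes to 4004 and 1063. Their part in the values below was not tested. The median of the IFN-γ list was 0.29 in NK cells, 0.46 in CD8 T cells, 0.32 in CD4 T cells and 0.40 in B cells, so the direction was the same in all 4 classes. MHC class I presentation had medians of 0.35, 0.23, 0.14 and 0.22 in the same order. For TNF/NF-κB genes the medians were 0.31, 0.39, -0.03 and 0.28. Nfkbia had a log2 ratio of 0.40 (0.17 to 0.62) in CD8 T cells, -0.07 (-0.23 to 0.08) in CD4 T cells and 0.49 (0.36 to 0.62) in B cells, against 1.43 in NK cells. Rgs1 was higher in the NP library in each class, at 0.80, 0.96 and 0.68. Prf1 had 38 and 36 UMIs in CD8 T cells (-0.11, -0.81 to 0.59), and H2-Q4 was at 0.12 in CD8 T, 0.02 in CD4 T and 0.64 in B cells. Klrg1 had 1 UMI in saline and 25 UMIs in NP CD8 T cells, and Gzma had 1 and 281, in 3 and 7 of the 87 NP cells. The cytotoxic list had a median of 0.49 in CD8 T cells and 0.08 in NK cells. CD8 T cells also differed in cell cycle genes, with all 34 measured members higher and a median of 2.42. That median was -0.03 in NK cells, 0.21 in CD4 T cells and -0.38 in B cells. The part of dividing cells in the CD8 T cell values was not tested.

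**Figure D5:**
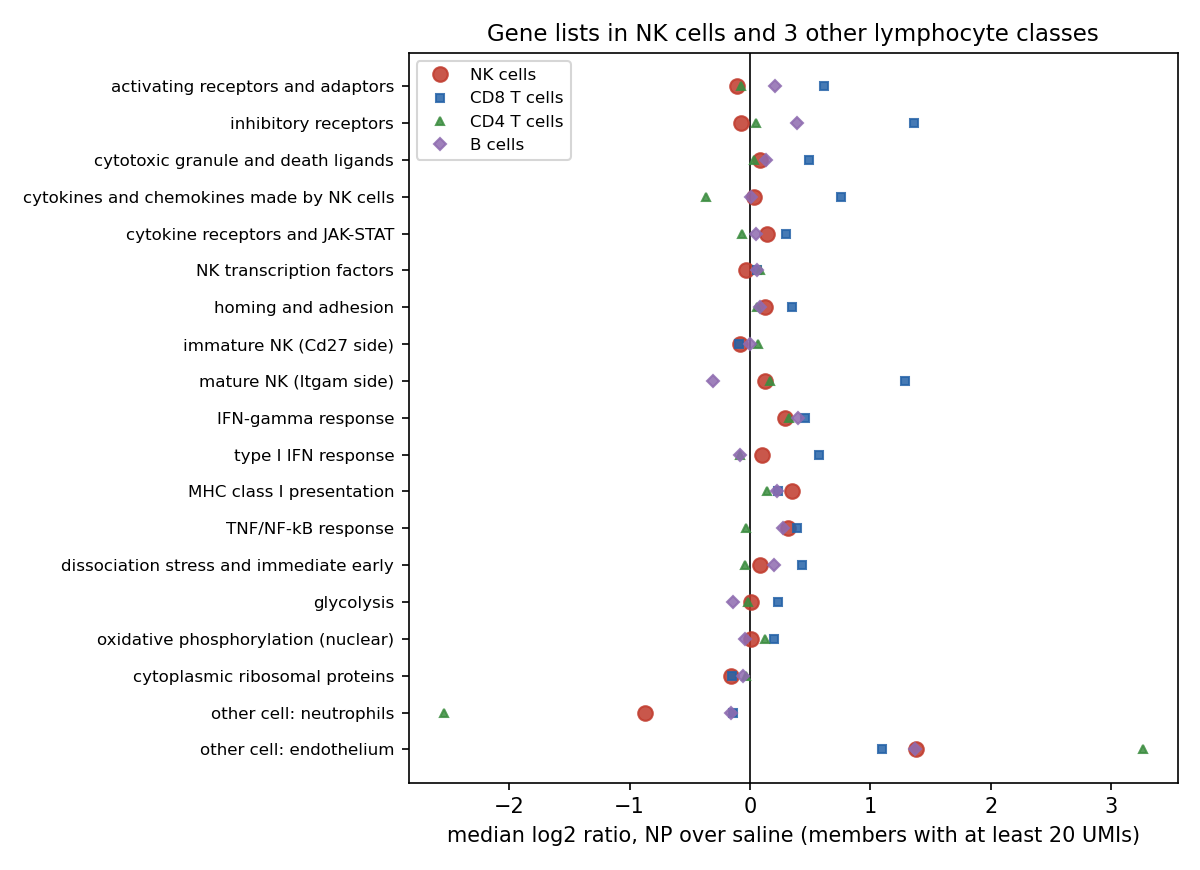
Median log2 ratio of NP over saline (x axis) of 19 gene lists (y axis) in NK cells (red circles), CD8 T cells (blue squares), CD4 T cells (green triangles) and B cells (purple diamonds), over members with at least 20 UMIs in that class. NK cells lie above 0 for IFN-γ response (0.29), MHC class I presentation (0.35) and TNF/NF-κB response (0.31), near 0 for receptors, cytokines and metabolism, and at 1.38 for endothelial and -0.87 for neutrophil genes; MHC class II, ILC1 and other lists are not drawn.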

How the data were processed

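Single-cell RNA of lung was measured in 1 saline and 1 NP library. The authors deposited raw UMI counts for 32285 genes, with 91168129 UMIs in the saline and 90081747 in the NP library and all barcodes unfiltered. The labels name bcl2fastq, Cell Ranger 6.0 and build mm10, while the file headers name Cell Ranger 4. All per-sample columns belong to these 2 libraries.

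NK cells were taken by the rule given above. UMIs of a gene were summed over the NK cells of a library and scaled to a total of 1000000 (CPM), and the log2 ratio of NP over saline was taken with a count under 3 set to 3. Ratios of counts carry exact conditional binomial intervals, shares exact Clopper-Pearson intervals and counts exact Poisson intervals, at 95%. Log2 ratios of NK shares carry approximate 95% intervals (Katz log intervals). All these intervals cover counting error only. Genes needed 50 UMIs over both libraries, and list members 20. Scrublet was run in scanpy 1.11.5, and the rest with pandas 2.3.3, scipy 1.17.1, numpy 2.4.6 and matplotlib 3.10.9 under Python 3.11.15. The calculation was tested on simulated data. To compare shares across depths, cells were thinned to 2000 UMIs, which left out 1 saline NK cell. Doublets were kept. Scrublet marked 4 of 8662 saline cells and 376 of 8333 NP cells, 1 of them an NK cell. At 0.0462% of saline cells it had not worked there, so doublets in the saline library were not assessed. Gene positions are from GENCODE M21 (GRCm38), which held 99.6% of the genes, and promoters from RefSeq.

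CD8 and CD4 T cells needed at least 2 UMIs of Cd3d, Cd3e and Cd3g and 1 of Cd8a or Cd8b1, or of Cd4 with Cd8a and Cd8b1 at 0. B cells needed at least 3 UMIs of Cd79a, Cd79b and Ms4a1. All had no Cd79a (T cells), no Cd3d or Cd3e (B cells), no Csf1r and under 2 UMIs of the NK genes.

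The NK rule, the gene lists and the comparisons were chosen with earlier results of these data known, and the NF-κB motif was added after the values were seen. Genes named are the 5 NK markers Ncr1, Klrb1c, Klre1, Gzma and Eomes, of each list the 4 members with the most UMIs and the highest and lowest ratio among those with 50 UMIs, the 10 highest and 10 lowest ratios of genes with at least 100 UMIs, Ngp and Camp, and all IFN-γ, cytotoxic and cytokine genes with 50 UMIs. Every other gene in the text lies outside this rule and was chosen after its values were seen, including Cd3g, Itgam, S1pr5, Cxcr3, Cxcr6, Jun, Fos, Klra1, Klra4, Klra5, Bcl3, Nfkb2, Ier3, Cxcl2, Ltf, Ly6g, Lag3, Nlrc5, Tnf, Il10, Bhlhe40, Traf1, Nfkbiz, Gadd45g and genes named as being at 0. Some genes under it are not reported here. Alternatives were other limits on genes, mitochondrial share, S100a8 and S100a9 and NK genes, removal of Cd3g, Ngp or Camp cells or doublets, other scalings, weighting and floors, free RNA subtraction, gene minimums, folds and thinning depths.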

Additional observations from a re-analysis of the deposited data

How the results depend on the processing

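There were 26 alternatives, 23 planned and 3 chosen after seeing the data, and each value was recomputed under those that bear on it, 13 for the NK shares of cells and 23 for the counts of genes past 2-fold. Of 171 named genes, 39 differed at least 2-fold and 30 of these kept their direction under every alternative run on them. Some of them fell below 2-fold under an alternative. The log2 ratios that came nearest equality were -0.003 for Wfdc17 and -0.12 for Camp, Hba-a2 and Hbb-bs, the last value being set by the floor of 3. Ramp2 fell to 0.63, Tmem176a to 0.67, Osm to 0.68, Xcl1 to 0.69, Tmem176b to 0.70 and Cd74 to 0.75. Smaller falls were those of Icam1 (0.91), Egr1 (0.95), H2-Q4 (0.95) and Socs1 (0.99), among others. With 1 library per condition, no alternative measures the variation between mice. No paired analysis was possible because each group has 1 library.

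Without the limit on S100a8 and S100a9, the log2 ratio of the NK share of cells under that limit was 0.16 in place of -0.63. That share is then divided by all kept cells, so by construction it is the share over all kept cells. The neutrophil median was 0.28, S100a8 was at 0.28 and S100a9 at 0.22. With 1 UMI of the NK genes enough, 127 genes were at least 2-fold higher and 47 lower, the MHC class II median was 5.01 and the B cell median 5.50, and Hspa1b (0.16) and Ighm (0.20) turned. Without cells with Ngp or Camp, 36 genes were at least 2-fold higher, the endothelial median was 2.43, and the share of cells with these genes was 0 by construction in both libraries. Gata2 was then at -0.38, the value that counts at the floor of 3 give in both libraries. It is therefore not read as a change of direction. At other gene minimums and folds, the genes higher and lower were 230 and 193 (20 UMIs), 5 and 3 (200 UMIs), 203 and 232 (1.5-fold) and 23 and 3 (3-fold). The cause of the other shifts was not tested.

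Thinned to 1000 UMIs, the shares of saline NK cells were 13.2% (Itgam without Cd27), 58.8% (Gzmb) and 32.5% (Eomes), and of NP NK cells 22.8%, 62.6% and 26.0%, with 19.5% for Ifng and 3.25% for Ngp or Camp. Unthinned, the saline shares were 42.1% (Itgam without Cd27), 49.1% (Ifng), 89.5% (Gzmb), 14.0% (Ngp or Camp) and 77.2% (Eomes), and the NP shares 60.2%, 53.7%, 86.2%, 16.3% and 66.7%. Gzmb was higher in NP cells at 1000 UMIs and lower at the other depths.

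Of the alternatives chosen after seeing the data, leaving out cells with at least 20 endothelial UMIs left 38 genes at least 2-fold higher, with Ifitm3 at -0.12, Vwf at -0.37 and Gata2 at -0.37. Pooling cells after thinning to 2000 UMIs left 13 genes higher and 12 lower and set the median of activating receptors to 0.0019. H2-Eb1, Gata2 and Zbtb46 were at -0.12 each, the value at the floor in these pools. None of these floor values is read as a change of direction.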
